A study of Homo sapiens with 6 samples.

Results

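The genes described are 10 members of the desmosome and of the simple keratin pair: the plakophilins PKP2, PKP3 and PKP4, plakoglobin (JUP), desmoplakin (DSP), the desmosomal cadherins DSG2, DSC2 and DSC3, and the keratins KRT8 and KRT18. They were found by name among the 20024 genes of the deposited table, which held a row for all 10. The 6 libraries come from RNA immunoprecipitation followed by sequencing (RIP-seq), in which an antibody recovers a protein together with its RNA. The antibody was directed against PTBP1, a protein that binds pyrimidine-rich RNA, in all 6 libraries. There were 3 libraries from AC16 cells lacking the long noncoding RNA DCRT (DCRT-KO) and 3 from WT AC16 cells, which the labels call cardiomyocytes of the heart. The labels name the line AC16, while the growth protocol describes cells bought from a commercial supplier and kept in its own medium, and which of these the cells were was not settled here. Neither input RNA nor a control antibody was analysed here, so transcript level, PTBP1 binding and carried-over RNA cannot be told apart. The labels do not say whether the knockout is 1 clone or how the replicates were cultured, so errors and p-values cover variation among these libraries only, part of which can be technical. In such bulk samples, fewer cells of a type and less RNA per cell cannot be told apart either.

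The desmosome is a button-like junction that ties the intermediate filaments of neighbouring cells together. Desmogleins and desmocollins span the membrane, plakoglobin and the plakophilins bind their tails on the inner side, and desmoplakin links this plaque to the filaments. In simple epithelia these filaments are made of keratin 8 and keratin 18, which pair with each other, whereas in heart muscle they are made of desmin. Desmosomes hold the intercalated discs of the heart together, and inherited changes in PKP2, DSP, JUP, DSG2 and DSC2 are known causes of arrhythmogenic cardiomyopathy.

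Since PTBP1 recognises CU-rich RNA, the most pyrimidine-rich stretch of 30 bases of a member's transcript is shown for 8 of the 9 members with reads, so that members with and without overlap between the groups can be set side by side. Each was read 5′ to 3′ from the sense strand of the principal GENCODE 29 transcript, with T for U, and capitals mark the tetramer TCTT, the DNA spelling of the PTBP1 motif UCUU.
PKP3: cccagcctcctggtcctcccgctccgccgt
JUP: cccccTCTTtgcaggcttttcctcctctct
DSP: tttgttTCTTcTCTTctgtgtttcgatttt
PKP2: ttTCTTTCTTtactttgtgcttgtttttat
DSG2: tccttcccttttctacaagttaattttttt
DSC2: cttccaattTCTTcccTCTTcTCTTttttc
KRT18: aagcctgagtcctgtcctttctctctcccc
KRT8: ctctcaaccctgtccccttccccctctctc
The stretch of PKP3 lay in the coding region, those of JUP, DSP, PKP2, DSG2 and DSC2 in the 3′ UTR, and those of KRT18 and KRT8 in the 5′ UTR. The stretches of PKP3, KRT18, KRT8 and DSG2 held no TCTT, that of JUP held 1, those of DSP and PKP2 held 2 and that of DSC2 held 3. Among these 8, members with and without TCTT were thus found both among those whose groups overlapped and among those whose groups did not. Among all tested genes, 62.7% held TCTT in such a stretch, and the median stretch had 26 pyrimidines, with 23 in PKP3 and KRT18, the fewest of these 8, 24 in DSG2 and 28 in DSC2, the most. Among stretches tied in pyrimidines, the one with the most TCTT was taken, in the members and in all tested genes, which favours the motif. A match is a description of the letters and not a binding site.

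RIP levels are given in FPKM as deposited, that is, as fragments divided by the length of the gene and the size of the library. Whole reads worked back from them totalled 373354 to 1380722 in the DCRT-KO libraries and 1798841 to 2589080 in the WT libraries, so depth goes with genotype. DCRT-KO libraries are numbered as in the labels, and WT libraries, whose headers repeat a number, are called a, b and c. The cells carried few heart muscle markers: 8 of 15 cardiomyocyte genes, among them the troponins TNNT2 and TNNI3 and the myosins MYH6 and MYH7, had no read in any library, and the 15 together summed to 1.59 to 14.6 FPKM in DCRT-KO and 5.35 to 7.69 FPKM in WT. The highest of these sums was that of DCRT-KO library 2, where NPPB at 7.57 FPKM and NPPA at 4.78 FPKM rested on 2 reads each. TTN, titin, had 2.41 ± 0.907 FPKM in DCRT-KO and 4.36 ± 1.04 FPKM in WT, with overlap, and was called lower with voom but not in limma (adjusted p = 0.213). Epithelial markers were also low, with a sum over 12 genes of 2.70 to 3.74 FPKM in DCRT-KO and 1.09 to 2.53 FPKM in WT. The groups did not overlap in this small sum, whose part in the results was not tested, and CDH1, GRHL2, KRT19 and RAB25 had no read in any library. The sum rests on few reads. CLDN4, the highest of the 12, had 3, 3 and 4 reads in DCRT-KO and 14, 9 and 4 in WT. ESRP2, the next highest, had 3, 2 and 5 reads in DCRT-KO and 10, 5 and 2 in WT. Of 7 keratinocyte markers, 6 had no read, and DES, the desmin gene, had none either. The 10 fibroblast markers summed to 17.0 to 27.9 FPKM in DCRT-KO and 12.7 to 14.5 FPKM in WT, without overlap. Most of this sum was FN1, fibronectin, at 20.0 ± 5.38 FPKM in DCRT-KO and 11.2 ± 1.23 FPKM in WT, while 4 markers had no read and PDGFRB, at 0.0677 FPKM in DCRT-KO and 0.704 FPKM in WT on average, was lower without overlap. PDGFRB rested on 0, 0 and 2 reads in the shallower DCRT-KO libraries and 11, 9 and 12 in WT, and its level was too low for it to be tested. The part of these markers in the results was not tested. Sums overlapped for 7 keratinocyte markers (6.19 to 11.4 FPKM in DCRT-KO, 3.36 to 7.45 in WT), 6 mesothelial markers (4.37 to 5.70 in DCRT-KO, 2.78 to 5.42 in WT) and 6 endothelial markers (10.6 to 14.8 in DCRT-KO, 14.6 to 19.6 in WT).

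PKP3, KRT18 and JUP had higher levels in all 3 DCRT-KO libraries than in any WT library, by 7.10-fold, 2.94-fold and 3.49-fold in the ratio of means, and DSP did so by 1.5-fold. The values of PKP2, PKP4, DSG2, DSC2 and KRT8 overlapped between the groups, and DSC3 had no read in any library. Of the 9 members with reads, which all passed a filter of a mean of 1 FPKM, 8 had a positive log2 difference and 1, PKP2, a negative one. JUP reached the filter only through the DCRT-KO libraries. The median log2 difference on log2(FPKM + 1), DCRT-KO minus WT, was 0.40 over these 9 members and -0.04 over all 11445 genes tested. In limma fitted over all genes, PKP3 and KRT18 passed the adjusted p threshold of 0.05 as higher, against 2.35% of all genes called higher and 3.55% called in either direction. No member was called lower, at an unadjusted p under 0.05 either or with voom on whole reads, against 1.2% of all genes in limma and 3.4% with voom. Neither PKP3 nor KRT18 passed when DCRT-KO library 2 or any 1 WT library was left out. Few genes of any kind were then called higher, 42 without DCRT-KO library 2 and 4, 8 and 0 without WT library a, b and c. With no library left out there were 269. KRT18 did not pass without DCRT-KO library 1, where 135 of all genes were called higher. Without DCRT-KO library 3 the members called higher were 3, JUP included, and the genes called higher rose to 724. The members were selected on their FPKM and log2 differences in this comparison, so these counts, folds and differences describe them and support nothing. Groups without overlap were found for 4 of the 9, all with DCRT-KO higher, against 15.5% of all tested genes in that direction and 30.3% in either.

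**Figure D1:**
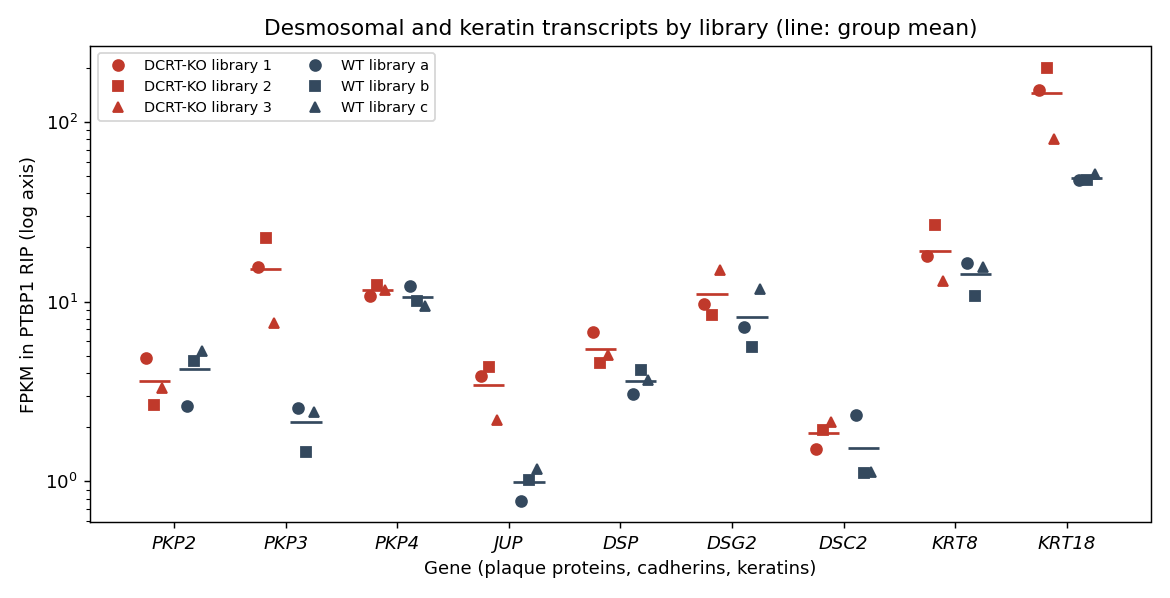
FPKM in PTBP1 RIP on a log axis for the 9 members with reads, with 1 point per library, DCRT-KO left of WT and a line at each group mean. PKP3, JUP, DSP and KRT18 have no WT point as high as their lowest DCRT-KO point, and the points of the other 5 overlap.

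Among the plaque proteins, PKP3, a plakophilin best known from stratified and simple epithelia, had 15.5, 22.6 and 7.63 FPKM in DCRT-KO libraries 1, 2 and 3, against 2.54, 1.46 and 2.43 FPKM in the 3 WT libraries (a, b, c). Its lowest DCRT-KO value lay above its highest WT value, and DCRT-KO library 3 stood lowest of its group. The means were 15.2 ± 7.48 FPKM in DCRT-KO and 2.15 ± 0.592 FPKM in WT (SD, n = 3 each), with a log2 difference of 2.27 ± 0.36 SE. These values rest on 31, 32 and 40 reads in DCRT-KO and 25, 10 and 19 reads in WT. The difference stood at the 99.9th percentile of all tested genes. Without DCRT-KO library 3 the ratio of means was 8.87, and library 3 alone was 3.56 times the WT mean. The row spans chr11:392614-404908 on the plus strand.

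JUP, plakoglobin, is the armadillo-repeat protein shared by desmosomes and adherens junctions. It had 3.83, 4.34 and 2.20 FPKM in DCRT-KO and 0.782, 1.01 and 1.18 FPKM in WT. Every DCRT-KO value lay above every WT value, again with library 3 lowest in DCRT-KO. Its log2 difference was 1.13 ± 0.31 SE, and it rests on 10, 8 and 15 reads in DCRT-KO and 10, 9 and 12 reads in WT per library, the fewest in total of the members with reads. JUP did not pass the limma threshold, whereas with voom on whole reads it passed with PKP3 and KRT18, making 3 members against 5.85% of all genes called higher by that test.

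DSP, the plakin that anchors filaments to the plaque, had 6.78, 4.53 and 5.05 FPKM in DCRT-KO and 3.08, 4.15 and 3.67 FPKM in WT. The groups were close but did not overlap, and the highest DCRT-KO value was in library 1 rather than library 2. Its log2 difference of 0.47 ± 0.24 SE stood at the 83.5th percentile of all genes and did not pass.

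PKP2, the plakophilin of the heart, had 4.84, 2.66 and 3.29 FPKM in DCRT-KO and 2.63, 4.66 and 5.30 FPKM in WT. Its highest and lowest values were both in WT, and the log2 difference was -0.17 ± 0.30 SE. PKP4, also called p0071, a relative of the plakophilins that is found at several kinds of junction, had 10.7, 12.4 and 11.6 FPKM in DCRT-KO and 12.2, 10.1 and 9.42 FPKM in WT. The groups overlapped, with a log2 difference of 0.12 ± 0.19 SE. The plakophilins thus held different shares of their common total. PKP3 made up 49.8%, 60.03% and 34.0% of the summed FPKM of the 3 plakophilin genes in DCRT-KO, against 14.7%, 9.03% and 14.2% in WT, while the sum itself was 30.4 ± 7.59 FPKM in DCRT-KO and 16.9 ± 0.599 FPKM in WT (SD, n = 3 each). The members were selected on these same FPKM values, so the shares and the sum describe them and support nothing. The size of these shares depends on gene length. The deposited lengths of PKP2, PKP3 and PKP4 are 7043, 3795 and 9525 bases, whereas their principal transcripts have 4302, 2809 and 4443 bases.

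Among the cadherins, DSG2, the desmoglein of simple epithelia and heart, had 9.69, 8.40 and 14.9 FPKM in DCRT-KO and 7.21, 5.60 and 11.8 FPKM in WT. The groups overlapped, and DCRT-KO library 3, the lowest of its group for PKP3 and JUP, was the highest here. The log2 difference was 0.40 ± 0.30 SE. DSC2, its desmocollin partner in the heart, had 1.51, 1.93 and 2.14 FPKM in DCRT-KO and 2.35, 1.11 and 1.12 FPKM in WT. Its highest value was in a WT library, and the log2 difference was 0.21 ± 0.31 SE. DSC3, a desmocollin of stratified epithelia, had 0 reads in all 6 libraries, a count that allows up to 3 reads per library. DSC3, DSC2 and DSG2 lie in 1 cluster, from chr18:30989365 for DSC3 to chr18:31549008 for DSG2.

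KRT18, the type I keratin of simple epithelia, had the highest level of the members, with 150.5, 199.9 and 80.0 FPKM in DCRT-KO and 47.2, 47.6 and 51.3 FPKM in WT. All DCRT-KO values lay above all WT values, with library 2 highest and library 3 lowest. The log2 difference was 1.44 ± 0.29 SE, and without DCRT-KO library 3 the ratio of means was 3.60, against 1.64 for library 3 alone. KRT8, the type II keratin that pairs with KRT18, had 17.9, 26.5 and 12.9 FPKM in DCRT-KO and 16.3, 10.7 and 15.5 FPKM in WT. The groups overlapped and the log2 difference was 0.37 ± 0.27 SE.

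The ratio of KRT18 to KRT8 FPKM was 8.42, 7.55 and 6.18 in DCRT-KO libraries 1, 2 and 3, and 2.89, 4.47 and 3.31 in the WT libraries. All DCRT-KO ratios lay above all WT ratios, library 3 included. Both genes were selected on these same FPKM values, so this separation describes the pair and supports nothing. In whole reads, KRT8 held 21.0% (16.6 to 26.0), 22.9% (18.2 to 28.1) and 26.6% (22.6 to 30.9) of the pair's reads in DCRT-KO. In WT it held 43.7% (39.9 to 47.6), 33.4% (28.8 to 38.3) and 40.4% (36.2 to 44.6), with exact 95% binomial intervals that cover counting error only. The size of the ratio depends on gene length. The deposited lengths of KRT8 and KRT18 are 6881 and 3069 bases, whereas the principal GENCODE 29 transcripts have 2126 and 1562 bases. The genes also share 525 exon bases on opposite strands where they overlap, at chr12:52948871-52949954, and GENCODE 29 names 50 KRT8 and 67 KRT18 pseudogenes, of which the table holds 0. The labels describe a strand-specific kit, but whether strand and multiple matches were used in counting is not given in the sources used here, so how reads divided among these copies is uncertain.

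**Figure D2:**
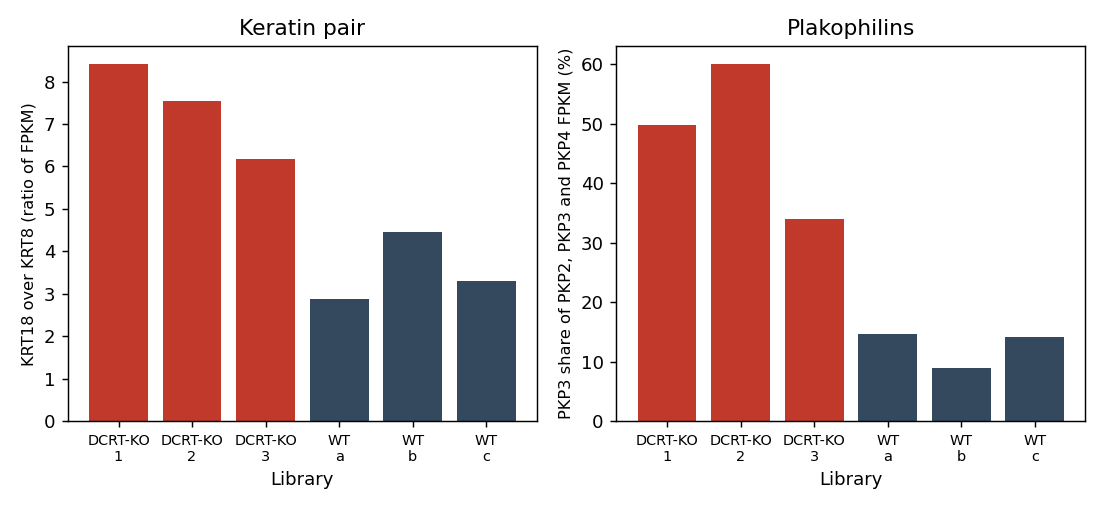
Bars per library, DCRT-KO left of WT, of the ratio of KRT18 to KRT8 FPKM (left panel) and of the PKP3 share of PKP2, PKP3 and PKP4 FPKM in percent (right panel). The ratio is 6.18 or more in DCRT-KO and at most 4.47 in WT, and the share is at least 34.0% in DCRT-KO and at most 14.7% in WT. Both rest on the deposited gene lengths and on members selected on these same values.

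In DCRT-KO the order of mean levels per length was KRT18, KRT8, PKP3, PKP4, DSG2, DSP, PKP2, JUP and DSC2. In WT it was KRT18, KRT8, PKP4, DSG2, PKP2, DSP, PKP3, DSC2 and JUP. KRT18 stood clear of KRT8 in every library of both groups. Among neighbours in the DCRT-KO order, ranges were apart between DSG2 and DSP and between JUP and DSC2 and overlapped for the other pairs. In WT they were apart between DSG2 and PKP2 and between DSP and PKP3 and overlapped for the others. On the deposited lengths, PKP3 ranked 3 in DCRT-KO, against 7 in WT. The summed FPKM of the desmosomal members was 52.8, 56.8 and 46.8 in DCRT-KO and 30.8, 28.1 and 34.9 in WT. The sums averaged 52.2 and 31.2, of which PKP3 alone made up 15.2 in DCRT-KO and 2.15 in WT. Of the others with reads, JUP and DSP did not overlap between the groups, whereas PKP2, PKP4, DSG2 and DSC2 did. On the lengths of the principal transcripts, KRT8 would average 61.8 FPKM in DCRT-KO and 45.8 FPKM in WT, and KRT18 282 and 95.7 FPKM. PKP4 would then average 24.8 FPKM and PKP3 20.6 FPKM in DCRT-KO, so that PKP3 would stand below PKP4. PKP2 at 5.89 FPKM would also stand above DSP at 5.59 FPKM in DCRT-KO, while the WT order would stay the same.

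PKP3, JUP and KRT18 had the order library 2, library 1, library 3, all above WT, an order held by 4.51% of all tested genes. This is also the order of depth from the shallowest library, with 373354 reads in library 2, 528371 in library 1 and 1380722 in library 3, and every WT library was deeper still. The part of depth in this order was not tested. DSP, also without overlap, had the order library 1, library 3, library 2. By Pearson's r of log2(FPKM + 1) over the 6 libraries, JUP was 32nd (r = 0.987) and PKP3 56th (r = 0.982) among 11444 genes in likeness to KRT18, whereas its partner KRT8 was 1604th (r = 0.769) and DSP 2078th (r = 0.697). Among genes averaging 5 FPKM or more, the 5 most like KRT18 were PARP1, a DNA break sensor, the ribosomal proteins RPS26 and RPS3, the semaphorin receptor PLXNA1 and the kinase STK25, with r of 0.996 to 0.9986. For DSP they were ZXDA, RSBN1L, BRPF1, SNRPD1 and ARGLU1, with r of 0.9781 to 0.996, and KRT18 was 1299th. These 6 points share genotype and a range of depth within each group, and r is given as a description. The members were also selected on these same values, so likeness among them supports nothing.

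GC content of the transcript went with the differences. Over all tested genes, the Spearman correlation across genes between GC content and log2 difference was 0.42 (11437 genes). These genes are not independent replicates and share library and depth. Over the 9 members the correlation was 0.70, a description only, since they were selected on these differences. The median log2 difference ran from -0.37 for genes under 40% GC to 0.40 for genes of 65% GC or more. PKP3 has 66.7% GC, JUP 61.5%, KRT18 60.5% and KRT8 59.1%, while the other 5 members with reads have 38.9% to 48.3%. Of the 9 members, 8 lay above the median of their own GC band, PKP2 being the exception. After removal of the trend of each library with GC content and length, PKP3 had a log2 difference of 1.87 ± 0.34 SE, KRT18 1.18 ± 0.30, JUP 0.87 ± 0.30 and KRT8 0.17 ± 0.27. DSG2 had 0.62 ± 0.28, DSC2 0.50 ± 0.32 and DSP 0.48 ± 0.23 in the same fit. PKP3 passed the threshold there, with 0.813% of all genes called higher, and KRT18 did not.

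**Figure D3:**
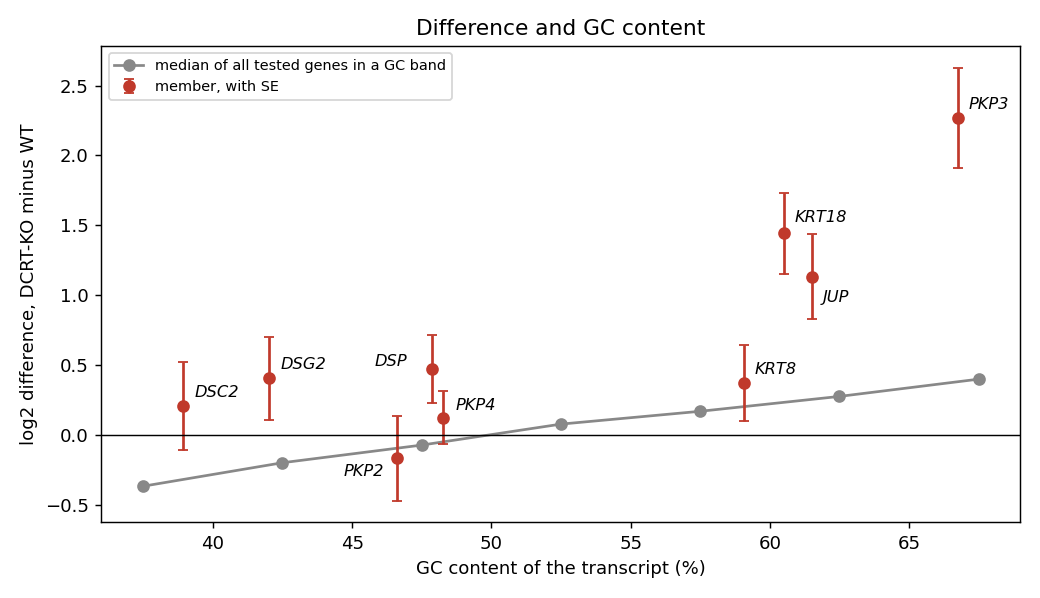
Log2 difference (DCRT-KO minus WT, with SE) of the 9 members against GC content of the transcript in percent, over the median of all tested genes per GC band, with the open bands below 40% and from 65% drawn just outside those edges. The medians run from -0.37 to 0.40, and PKP3, KRT18 and JUP lie between 1.13 and 2.27 at 60.5% to 66.7% GC.

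Of the 9 members, 7 had fewer UCUU motifs per length than the median tested transcript. Over the whole transcript, UCUU occurred 1.41 times per kilobase in KRT8, 2.85 in PKP3, 3.20 in KRT18, 3.43 in JUP, 3.83 in PKP4, 3.88 in DSP and 4.18 in PKP2, against 5.83 in DSG2 and 7.63 in DSC2 and a median of 4.98 over all tested genes. The motif was present in 99.3% of tested transcripts on the sense strand, the only strand searched. CUCUCU, which can overlap UCUU, was present in 6 of the 9 members and in 62.6% of tested transcripts.

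Genes around the members had these differences. Within 5 Mb of PKP3, 40 of 49 tested genes other than members had positive log2 differences, against 47.2% of all tested genes, with a median of 0.31 and a median GC content of 62.5%. Of these 49, 6 were called higher and 0 lower, against 2.35% and 1.2% of all tested genes. Around PKP2, 17 of 18 were lower in DCRT-KO, with a median of -0.51, below the -0.17 of PKP2 itself, and 3 of the 18 were called lower and 0 higher. Around DSP 31 of 39 were lower, and their median was -0.33 where DSP itself had 0.47. Around KRT18 and JUP the medians were -0.07 (152 genes) and 0.01 (131 genes), against 1.44 for KRT18 and 1.13 for JUP. Around JUP 3 were called higher and 2 lower, around KRT18 1 higher and 0 lower, and around DSP 0 in either direction.

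**Figure D4:**
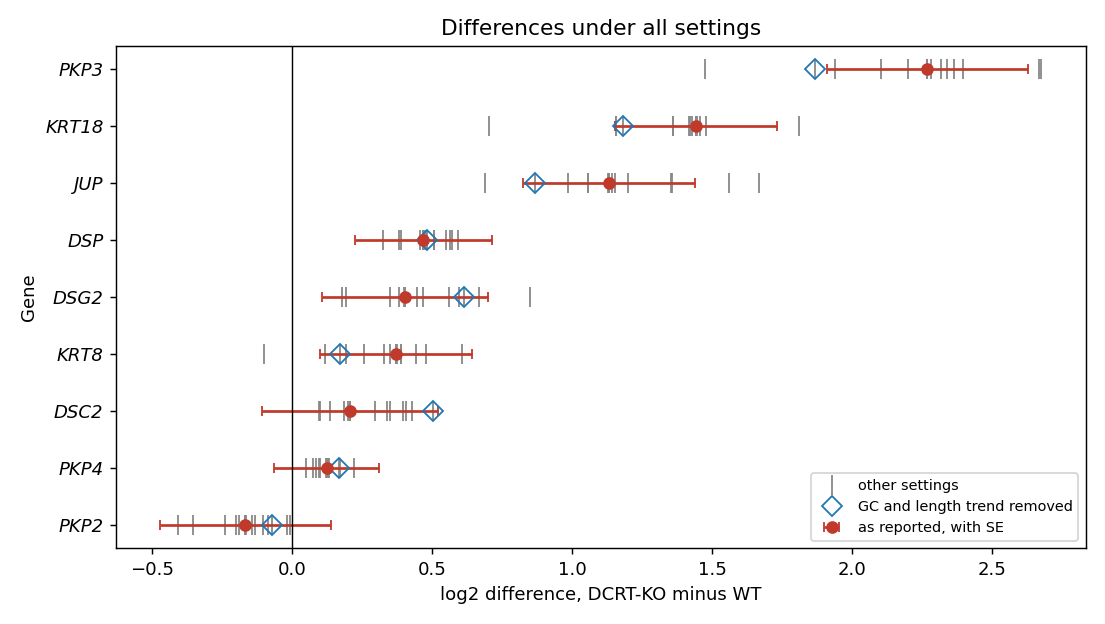
Log2 difference (DCRT-KO minus WT) of the 9 members as reported with SE (filled points), with the GC and length trend removed (open diamonds) and under the other alternative settings (ticks). PKP3, KRT18 and JUP stay at 0.69 or above under all of them, PKP2 stays below 0 but reaches -0.007, and KRT8 reaches -0.10 in one.

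Other junction and filament genes were read from lists of textbook components. Of 74 such genes, 36 passed the filter, and 21 were higher and 15 lower in DCRT-KO, with a median log2 difference of 0.07. At an unadjusted limma p under 0.05, 5 of the 36 were higher and 5 lower. The share of all genes at that unadjusted level is not given here. These counts, and those of the single lists below, thus have no background beside them. With voom 3 were called higher and 2 lower, against 5.85% and 3.4% of all genes. With limma adjusted over all genes, none of the 36 was called higher and 1 was called lower, against 2.35% and 1.2% of all genes. The call was CLDN11, a claudin of tight junctions, which fell to 9.13, 16.5 and 31.05 FPKM in DCRT-KO libraries 1, 2 and 3, against 73.5, 64.6 and 68.2 FPKM in WT (log2 difference -1.97 ± 0.35 SE, limma adjusted p = 0.0269). All 3 DCRT-KO values lay below all 3 WT values. The call was lost in 6 of 17 alternative settings, among them leaving out any 1 WT library or DCRT-KO library 2. Of all genes, 0 were called lower without any 1 WT library and 23 without DCRT-KO library 2, against 137 as reported.

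Of 9 other desmosomal genes, 5 had no read, among them DSG1, DSG3 and PKP1, and only PERP, a desmosomal membrane protein and p53 target, passed the filter, with 28.1 ± 9.42 FPKM in DCRT-KO and 30.1 ± 4.18 FPKM in WT (limma adjusted p = 0.756). PPL, periplakin, was the next highest at 0 to 1.39 FPKM in DCRT-KO and 0.301 to 0.63 FPKM in WT. Of 17 other keratins, 8 had no read and 2 passed the filter. KRT80 had 17.9 ± 4.28 FPKM in DCRT-KO and 21.0 ± 1.90 FPKM in WT (limma adjusted p = 0.514), and KRT10 had a log2 difference of 0.50 ± 0.31 SE (limma adjusted p = 0.357).

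Of 9 tested filament proteins and linkers, 8 were higher (median log2 difference 0.25) and none passed in limma (3 at an unadjusted p under 0.05, 2 with voom). PLEC, plectin, which joins keratin filaments to other structures, had 82.0, 105.9 and 42.4 FPKM in DCRT-KO and 22.4, 35.9 and 25.3 FPKM in WT. The groups did not overlap, with library 2 highest and library 3 lowest in DCRT-KO as for KRT18 (log2 difference 1.36 ± 0.32 SE, limma adjusted p = 0.0507, voom adjusted p = 0.000829). PLEC has 67.0% GC. VIM, vimentin, the filament protein of mesenchymal cells, had 94.1 ± 15.8 FPKM in DCRT-KO and 78.3 ± 7.01 FPKM in WT (limma adjusted p = 0.393). Of 6 hemidesmosome genes, PLEC included, 4 were tested and 3 were higher, none past the threshold in limma (2 at an unadjusted p under 0.05, 2 with voom). The tetraspanin CD151 had 49.99 ± 18.5 FPKM in DCRT-KO and 28.6 ± 0.644 FPKM in WT (limma adjusted p = 0.156).

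Adherens junction genes divided evenly, 6 higher and 6 lower of 12 tested, with no call in limma or voom (3 at an unadjusted p under 0.05). CTNND1, p120 catenin, had 31.2, 22.8 and 31.0 FPKM in DCRT-KO and 36.9, 41.8 and 41.2 FPKM in WT (log2 difference -0.49 ± 0.18 SE, limma adjusted p = 0.132). VCL, vinculin, had 77.4 ± 1.88 FPKM in DCRT-KO and 84.2 ± 11.7 FPKM in WT. Of 10 tested tight and gap junction genes, 6 were lower, with a median of -0.10. TJP1, the scaffold ZO-1, had a log2 difference of -0.04 ± 0.22 SE (limma adjusted p = 0.925). GJA1, connexin 43, the main gap junction protein of the working heart, is outside the naming rule and was picked with its values in view. It had 8.87, 8.63 and 20.6 FPKM in DCRT-KO and 24.7, 22.6 and 26.4 FPKM in WT, without overlap (log2 difference -1.01 ± 0.30 SE, limma adjusted p = 0.0876). Of 7 tested regulators of epithelial and mesenchymal state, 3 were higher and 4 lower, none past the threshold in limma (3 at an unadjusted p under 0.05, 1 with voom). TWIST2 had 27.8 ± 5.64 FPKM in DCRT-KO and 26.5 ± 2.81 FPKM in WT, and ZEB1 had a log2 difference of -0.20.

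**Figure D5:**
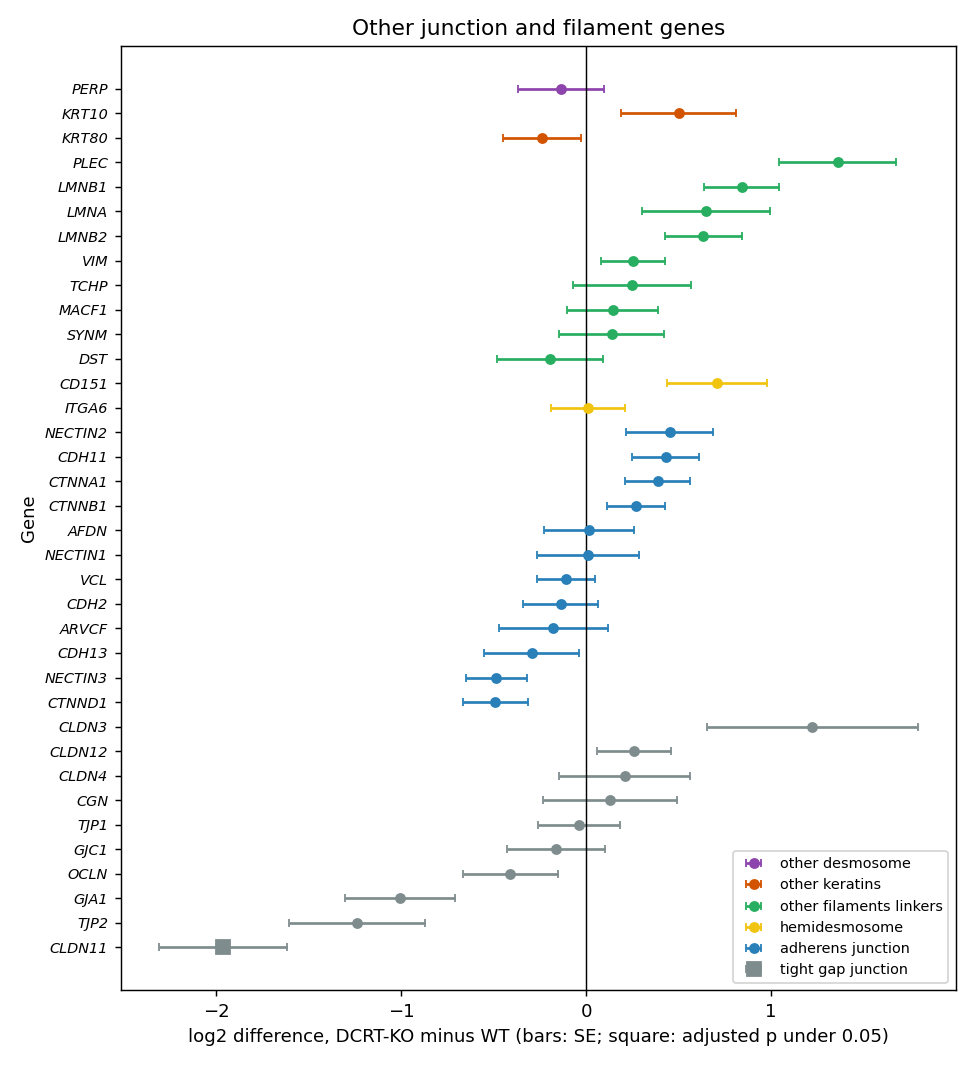
Log2 difference (DCRT-KO minus WT, bars SE) of the 36 tested genes of the other junction and filament lists, coloured by list. CLDN11 at -1.97 is the square past the threshold, and PLEC at 1.36 is the highest.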

How the data were processed

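PTBP1 RIP-seq covered 6 AC16 libraries, 3 of them DCRT-KO and 3 WT. The authors deposited FPKM per gene with gene lengths, per the file headers, and cutadapt 1.2.1 is named in the submitters' processing notes; for the aligner, the counter and the build, nothing is stated in those sources. All 10 members overlapped the GENCODE 29 (GRCh38) gene of the same identifier, and positions are printed as deposited. Multiplying FPKM by length gave steps of 1 read, whole in 100% of values at a tolerance of 0.0001, and these were taken as whole reads. In a chi-square test of their reads, replicates of a group differed by more than counting error, at 2.82 to 5.88 for each degree of freedom, and no pair was treated as 1 sample.

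The 11445 genes averaging 1 FPKM or more entered limma 3.58.1 (R 4.3.3). Values were taken as log2(FPKM + 1), which understates changes of low genes. The fit used a variance trend and two-sided tests, Benjamini-Hochberg adjusted over all genes at 0.05, and voom on the whole reads was an alternative. GC content and motifs came from the principal, then longest, GENCODE 29 transcript of each gene; the pyrimidine-rich stretch of PKP4 is not reported here. Members and lists were chosen with earlier results of these data known. Named list genes were those past the threshold and the 2 highest of each list; marker lists are given by counts, and the single markers NPPA, NPPB, TTN, FN1 and PDGFRB were picked with their values known. Of 6 mesothelial, 10 fibroblast and 6 endothelial markers, 1, 2 and 2 were tested, and none was called in limma (1 fibroblast marker at an unadjusted p under 0.05 and with voom). Python 3.11.15 with NumPy 2.4.6, pandas 2.3.3 and SciPy 1.17.1 prepared the tables.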

Additional observations from a re-analysis of the deposited data

How the results depend on the processing

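Under 17 alternative settings (16 for JUP and PKP2, which a filter of 5 FPKM leaves out) PKP3, KRT18 and JUP kept a positive log2 difference, at 1.48 to 2.68, 0.70 to 1.81 and 0.69 to 1.67, and passed in 13 of 18, 9 of 18 and 3 of 17 fits, the reported fit included. PKP2 stayed negative in those 16, at -0.40 to -0.007, and lay closest to 0 without WT library c (-0.007 ± 0.36 SE). KRT8 was -0.10 without both shallowest DCRT-KO libraries, a fit whose lone DCRT-KO library is assumed to vary like WT. Members called higher numbered 1 with no filter, with no variance trend and with the GC and length trend removed, 0 without both shallowest DCRT-KO libraries, and 0 to 3 with 1 library left out; they numbered 0 without DCRT-KO library 2 or any 1 WT library, 1 without DCRT-KO library 1 and 3 without library 3. Members called lower numbered 0 throughout. All genes called higher and lower were 269 and 137 as reported, 72 and 50 with no filter, 70 and 64 with no variance trend, 669 and 389 with voom, 93 and 66 with the GC and length trend removed, 31 and 13 without both shallowest DCRT-KO libraries, and 0 to 724 and 0 to 836 with 1 library left out. A pseudocount of 0.1 gave 90 lower, a filter of 5 FPKM 384 higher and 179 lower, and quantile normalization 281 higher and 278 lower. Without DCRT-KO library 1, 2 or 3 the genes called higher were 135, 42 and 724 and those called lower 70, 23 and 836. Without WT library a, b or c the genes called higher were 4, 8 and 0, and 0 were called lower. Of the other junction and filament genes, 2 were called higher with a filter of 5 FPKM, 3 higher and 2 lower with voom, 0 lower with no filter or no variance trend, and 0 to 3 in each direction with 1 library left out. CLDN11 ranged from -2.39 to -1.12 and lost its call with no filter, with no variance trend, without DCRT-KO library 2 and without any 1 WT library. PERP turned to 0.12 with the GC and length trend removed and 0.36 without both shallowest DCRT-KO libraries, and ranged from -0.39 to 0.035 with 1 library left out (positive without DCRT-KO library 1). TJP1 turned to 0.067 with that trend removed and ranged from -0.18 to 0.15 with 1 library left out, with 0.10 without DCRT-KO library 3 and 0.15 without WT library c. The cause was not tested. A quasi-likelihood count test was not run. No paired analysis was possible because the WT columns repeat a replicate number. Depth limits members with few reads, such as JUP at 8 to 15 per library and PKP2 and DSC2 at 7 and 9 in DCRT-KO library 2.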
